A study of Mus musculus with 4 samples.

Results

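The regions described here are peaks that were called in the wild-type Tet1 ChIP library of mouse spermatogonia, were not overlapped by any peak of the knockout list, and lay where the input was low. The members were chosen by measured values, namely the peak calls of both libraries and the pileup, fold and input background in WT. A wild-type (WT) peak was a member when no knockout (KO) peak shared 1 bp or more with it, when it lay on chromosomes 1 to 19, X or Y, and when its local input background was below 4 times the genome-wide value of 0.341 tags. Of the 373 peaks of the WT list, 352 lay on these chromosomes and 249 of those had no KO overlap. Another 16 were dropped for their input, which left 233 members. Spermatogonia, which are dividing germ cells of the testis that renew themselves or give rise to sperm, were flow sorted (20000 cells) from mice of strain 129 at 3 months of age, either wild type or Tet1 knock out, and 1 Tet1 ChIP library and 1 input library (chromatin sequenced without antibody) were made per genotype. The labels do not give the allele, the number of animals behind a library, or the markers used for sorting, and no agent was given to either genotype as far as they say. A peak list holds no expression values, so neither the cell type nor the loss of Tet1 was checked. With 1 library per genotype there is no replicate error, no test between genotypes was made, and every interval below covers counting error only.

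Tet1 is one of the TET dioxygenases, which oxidise 5-methylcytosine in DNA to 5-hydroxymethylcytosine and further products. It carries a CXXC zinc finger that binds CpG-rich DNA, and in cultured mouse embryonic stem cells it is found mostly at CpG-rich promoters. In ChIP-seq, a peak is a place where fragments pulled down by the antibody pile up above the input, and peaks that are also found in cells without the protein show what the procedure recovers by itself. Most of the members held few fragments, so each is a position in 1 library rather than an established binding site, and a gene next to one is given for its position, not as a target.

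Among the members were 44 with the summit within 500 bp of the start of a protein-coding gene, and the promoters of some of the strongest are shown first. Each sequence below is the RefSeq window of 300 bases (250 before and 50 from the annotated start, GRCm38.p6, which has the mm10 coordinates), written 5′ to 3′ on the strand of the gene. Capitals mark every match, on either strand, to 8 motifs that were searched in every window. The letters CCAAT are bound by the factor NF-Y, and those of GGGCGG by factors of the SP and KLF families. The letters CCGGAAG are the core read by ETS factors, and TGACGTCA is the cyclic AMP response element (CRE). The E-box searched was CACGTG, and the box of the TATA-binding protein was searched as TATAAA. The last were the palindrome of NRF1, which is the capitals of the Prkrip1 sequence, and the B box of tRNA genes, which is the first run of capitals of the Polg sequence. The first 5 are the windows with the highest fold among those that held the summit: Rtf2 (chr2:172440328-172440627, plus strand), Ska2 (chr11:87109011-87109310, plus strand), Polg (chr7:79466224-79466523, minus strand), Pop7 (chr5:137502380-137502679, minus strand) and Prkrip1 (chr5:136198905-136199204, minus strand). Hspa5 (chr2:34771840-34772139, plus strand) and Ciart (chr3:95882179-95882478, minus strand) were added after their values were seen, for 4 CCAAT and 3 E-box matches.
Rtf2: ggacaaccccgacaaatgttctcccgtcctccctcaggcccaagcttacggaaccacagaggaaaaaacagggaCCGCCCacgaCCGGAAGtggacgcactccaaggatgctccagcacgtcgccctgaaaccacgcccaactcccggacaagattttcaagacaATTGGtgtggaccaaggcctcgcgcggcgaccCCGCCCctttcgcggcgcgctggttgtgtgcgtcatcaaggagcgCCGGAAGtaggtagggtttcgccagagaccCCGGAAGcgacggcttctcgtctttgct
Ska2: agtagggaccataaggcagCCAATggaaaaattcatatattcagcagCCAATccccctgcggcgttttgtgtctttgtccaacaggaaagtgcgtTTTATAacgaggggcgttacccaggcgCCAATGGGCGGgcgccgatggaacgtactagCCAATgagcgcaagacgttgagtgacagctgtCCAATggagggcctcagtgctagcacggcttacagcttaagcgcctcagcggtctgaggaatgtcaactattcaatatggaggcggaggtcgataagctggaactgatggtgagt
Polg: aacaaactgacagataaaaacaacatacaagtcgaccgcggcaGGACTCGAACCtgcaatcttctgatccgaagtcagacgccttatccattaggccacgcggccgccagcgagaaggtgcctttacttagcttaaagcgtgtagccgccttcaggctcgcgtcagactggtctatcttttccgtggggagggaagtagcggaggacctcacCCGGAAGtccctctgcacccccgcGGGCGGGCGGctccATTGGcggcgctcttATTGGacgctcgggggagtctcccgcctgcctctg
Pop7: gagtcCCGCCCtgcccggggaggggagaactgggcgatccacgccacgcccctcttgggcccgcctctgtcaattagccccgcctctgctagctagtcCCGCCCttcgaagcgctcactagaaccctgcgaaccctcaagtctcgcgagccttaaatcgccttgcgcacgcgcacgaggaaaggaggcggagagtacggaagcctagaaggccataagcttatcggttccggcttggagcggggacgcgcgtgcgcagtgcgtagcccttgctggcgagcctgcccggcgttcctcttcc
Prkrip1: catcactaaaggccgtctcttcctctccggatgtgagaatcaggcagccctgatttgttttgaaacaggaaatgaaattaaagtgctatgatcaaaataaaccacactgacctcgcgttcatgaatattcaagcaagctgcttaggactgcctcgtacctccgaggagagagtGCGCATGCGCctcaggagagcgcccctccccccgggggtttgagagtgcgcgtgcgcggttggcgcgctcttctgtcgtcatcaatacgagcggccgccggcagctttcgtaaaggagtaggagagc
Hspa5: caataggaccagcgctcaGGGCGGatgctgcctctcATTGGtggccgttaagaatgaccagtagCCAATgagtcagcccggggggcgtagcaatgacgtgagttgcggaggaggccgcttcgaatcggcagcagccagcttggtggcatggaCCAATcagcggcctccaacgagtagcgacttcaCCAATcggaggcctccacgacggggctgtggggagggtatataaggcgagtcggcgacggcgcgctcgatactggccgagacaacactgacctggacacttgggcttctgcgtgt
Ciart: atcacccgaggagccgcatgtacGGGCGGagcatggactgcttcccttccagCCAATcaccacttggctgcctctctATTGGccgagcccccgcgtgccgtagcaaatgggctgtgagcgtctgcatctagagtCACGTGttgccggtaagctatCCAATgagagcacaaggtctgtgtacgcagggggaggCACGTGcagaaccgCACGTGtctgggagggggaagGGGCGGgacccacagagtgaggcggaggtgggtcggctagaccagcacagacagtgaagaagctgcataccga
In the Ska2 window, 5 CCAAT matches run from -231 to -65 relative to the start, with the summit at -79. In the Rtf2 window 3 ETS matches lie at -166, -8 and 23, with the summit at -14, and the window also holds 2 SP/KLF matches and 1 CCAAT. The Polg window holds the only B box match among the member windows, which belongs to the arginine tRNA gene n-TRtcg5, 20 bp from the summit. A pair of SP/KLF matches overlap each other there. The Prkrip1 window has a single match, the NRF1 motif at -77, and the Pop7 window has 2 SP/KLF matches and no other. A match describes letters and says nothing of whether a factor was bound.

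Across the 62 promoter windows within 500 bp of a member summit, CCAAT, ETS, NRF1 and CRE matches made up larger shares than in all 21263 protein-coding windows of the table. The 62 windows belong to 56 genes and 47 peaks, and windows of 1 gene or of a divergent pair share letters, so they are not independent. CCAAT was found in 67.7% of the member windows and in 38.2% of all windows, and 3 or more CCAAT in 25.8% against 3.92%. The ETS motif was in 25.8% against 11.6%, the NRF1 motif in 9.68% against 1.33%, and the CRE in 9.68% against 2.23%. The NRF1 motif and the CRE were each in only 6 member windows. These include the divergent pair Mrpl32 and Psma2 for NRF1, and Dtl and Ints7 for the CRE. The E-box (9.68% against 7.84%) and the TATA box (12.9% against 12.6%) lay near the share of all windows. Member windows were also richer in CpG, with a median of 22 CpG against 13, and 96.8% of them had at least 10 CpG against 56.8%. Composition therefore moves with the motif shares, so the shares were also taken among windows with at least 10 CpG. There CCAAT stayed at 68.3% of 60 member windows against 36.8% of 12067. The ETS motif was at 26.7% against 18.4%. For the NRF1 motif and the CRE only the shares of all such windows were taken, 2.30% and 3.46%. The SP/KLF motif changed direction: 59.7% against 46.2% over all windows became 60% against 72.4%. The 12 windows at WT peaks shared with KO had a median of 24.5 CpG, and the 11 at KO-only peaks had 14, near the 13 of all windows. Of the shared windows 66.7% held CCAAT, 16.7% ETS, 8.33% NRF1 and 8.33% the CRE. Of the KO-only windows 36.4% held CCAAT, 27.3% ETS, 9.09% NRF1 and 27.3% the CRE. With so few windows the shares at shared and KO-only peaks are rough, and for ETS, NRF1 and the CRE those at KO-only peaks were near or above those at members.

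**Figure D1:**
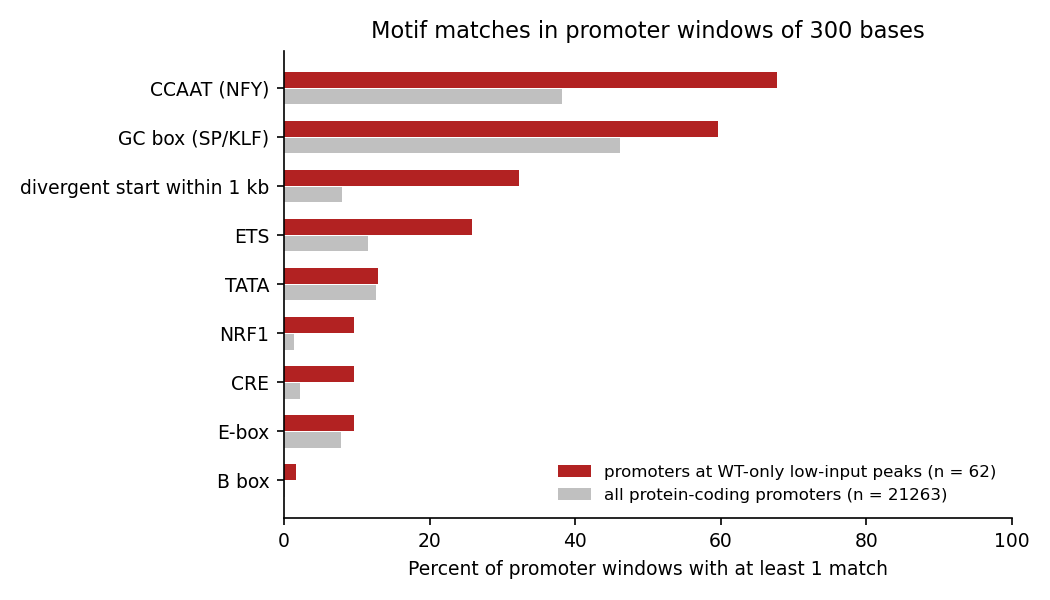
The horizontal axis is the percent of promoter windows of 300 bases with at least 1 match, for each motif on the vertical axis, with 1 bar for the 62 windows at WT-only low-input peaks and 1 for all 21263 protein-coding windows. The CCAAT bar stands at 67.7% against 38.2%, while the E-box and TATA bars of both sets are close together.

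The members were low peaks. The pileup, which counts the tags of the ChIP library that reach across the summit once extended to fragment length, had a median of 6 and ran from 4 to 22. The fold, the authors' ratio of pileup plus 1 to local background plus 1, had a median of 5.22 (3.29 to 12.3), and the median width was 327 bp. Pileups of 5 (60 members) and 6 (63 members) were the most common, and only 15 members reached 13 or more. A pileup of 6 has an exact Poisson 95% interval of 2.20 to 13.1 tags. The authors' q ran from 8.21e-20 to 0.466, and 199 of the 233 had a q of at most 0.05, where 89.3% of the whole WT list did. A fold of at least 5 was reached by 133 members, where 53.1% of the whole list reached it. These values made the list and the members, so they describe the members and support nothing.

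**Figure D2:**
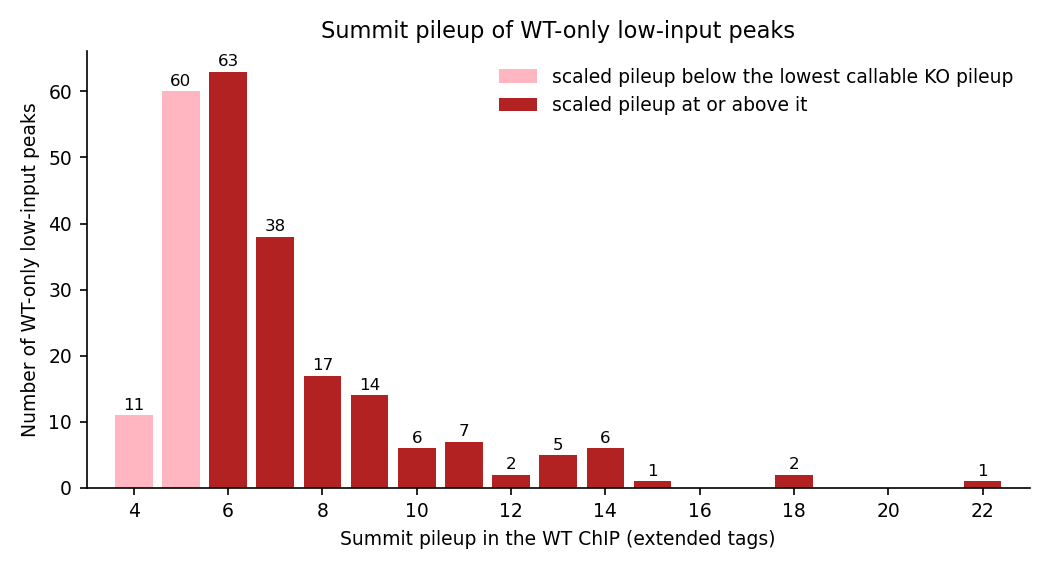
The horizontal axis is the summit pileup in the WT ChIP in extended tags and the vertical axis the number of WT-only low-input peaks, with dark bars where the pileup scaled to the KO depth reaches 4 tags. The bars at 5 and 6 tags hold 60 and 63 members, and the 71 members at 4 or 5 tags are in light bars.

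By the rule, 233 of the 283 low-input WT peaks (82.3%) were not overlapped by a KO peak. In the other direction, 69 low-input KO peaks were not overlapped by a WT peak and 51 were. Lack of overlap was therefore common in both lists, and the WT share alone does not measure dependence on Tet1. The input limit fell in a gap of the background values. This gap comes largely from counting whole input tags, since 1 is worth 0.869 tags once scaled and 2 are worth 1.74. The highest member background was 1.04 tags, 3.05 times the genome-wide value, and the next WT peaks outside the limit were 4 peaks at 1.74 tags, 5.09 times. The background of 105 members was the genome-wide value itself. That value rests on the human preset for genome size that the authors used. A smaller size would raise this background and lower the fold of these members, and other sizes were not tried. For the overlap criterion, the smallest overlap among the 50 shared peaks was 90 bp, and the nearest unshared member lay 259 bp from a KO peak. Only 4 members had a KO peak within 1 kb and 34 within 10 kb.

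The WT ChIP was the deeper library, with 3081692 tags after duplicate removal against 2235818 in KO, a ratio of 1.38. The lowest pileup that the KO list could hold at its genome-wide background was 4 tags. Scaled by depth, 162 members came to 4 tags or more and 71 to less, and 96% of the shared low-input WT peaks came to 4 or more. For those 71, all of 4 or 5 tags in WT, absence from the KO list was not informative at this depth. A scaled pileup is an expected value, without counting error. The 63 members of 6 tags scaled to only 4.35, so at equal signal some could still fall below 4. Reaching 4 therefore does not by itself make absence informative. The KO pileup at the other members is not listed either, so for none of the 233 is a ratio between genotypes known. The share that scaled to a callable pileup was 31 of 33 at small RNA genes, 36 of 40 at protein-coding starts, 56 of 100 inside protein-coding genes and 26 of 37 away from genes.

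Members lay mostly at genes. A gene was inside reach of the summit, holding it or within 3 kb of it, for 196 members (84.1%, exact binomial 95% interval 78.8 to 88.6), where such windows cover 52.5% of the sequence from the first to the last annotated gene of each chromosome. A gene end lay within 3 kb of 119 members (51.1%, 44.5 to 57.7), where such stretches cover 15.3%. Of the 69 KO-only low-input peaks, 75.4% (63.5 to 84.9) had a gene in reach. A gene end lay within 3 kb of 55.1% (42.6 to 67.1) of them. For the 50 shared low-input WT peaks the same shares were 92% (80.8 to 97.8) and 84% (70.9 to 92.8). Nearness to genes and gene ends was therefore not particular to the members. Each member was put in the first class that it met, in this order. A small RNA gene (tRNA, small nuclear RNA and the like) lay within 500 bp of 33 members (14.2%, in 0.0587% of the sequence). Next came 40 members within 500 bp of a protein-coding start (17.2%, in 0.709% of the sequence). A further 100 lay inside a protein-coding gene with no listed start within 500 bp (42.9%, where such genes cover 38.2%). No start was listed for 37 of the 194 protein-coding genes in reach, Mcm4 and Trmt12 among them, so some of these 100 may lie at a start. The other 60 comprised 13 within 3 kb of a protein-coding gene, 10 at other genes only and 37 with no gene within 3 kb. Of these 37, 19 were on chromosome Y.

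The shared low-input WT peaks were placed differently in these libraries. A small RNA gene was near 64% (49.2 to 77.1) of the 50 shared peaks, against 14.2% (9.95 to 19.3) of the members and 23.2% (13.9 to 34.9) of the 69 KO-only low-input peaks. The share inside protein-coding genes was 10% (3.33 to 21.8) for shared peaks, 42.9% (36.5 to 49.5) for members and 21.7% (12.7 to 33.3) for KO-only peaks. Protein-coding starts took 8 of the 50 shared peaks, 40 of the 233 members and 9 of the 69 KO-only peaks, with intervals that overlap widely. The sets also differed in strength, with median pileups of 10 tags (shared), 6 (members) and 7 (KO-only, in the shallower library). Members inside protein-coding genes were weaker than those at starts, with a median fold of 4.61 and 79 of 100 at a q of at most 0.05, against 5.60 and 39 of 40. The 10 members at other genes only had a median fold of 4.38, with 5 at such a q. Neighbouring peaks are not independent and no test between the sets was made.

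**Figure D3:**
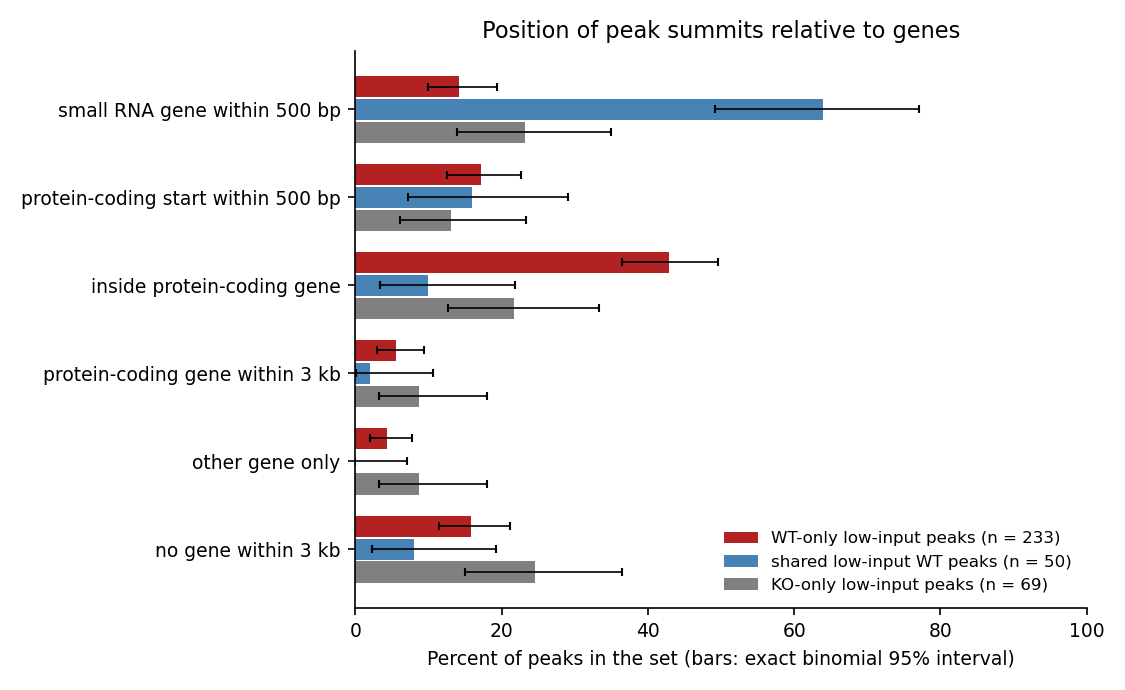
The horizontal axis is the percent of peaks in a set with exact binomial 95% intervals and the vertical axis the position of the summit relative to genes, for 233 WT-only, 50 shared WT and 69 KO-only low-input peaks. Shared peaks are mostly at small RNA genes (64%), while the largest class of the WT-only peaks is inside protein-coding genes (42.9%).

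Of all 49943 annotated genes, 305 (0.611%) held a member summit or lay within 3 kb of one, and of the 21887 protein-coding genes 194 did (0.886%). Among the 194, 122 held a summit and 72 had one outside only. Beside them were 50 tRNA genes, 33 long noncoding RNA genes, 10 small nuclear RNA genes, 9 pseudogenes counting the transcribed Erdr1, and a few other RNA genes. Several genes often share 1 summit, since 89 members (38.2%) had at least 2 genes in reach. The protein-coding genes fall into 11 groups by known function, made after the genes were seen, with 10 genes in none of them, and group sizes were not compared with any background.

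The 40 members of the start class, which by its limit holds summits within 500 bp, lay from -496 to 387 bp of a start, with a median of -49, and 24 were within 100 bp. Upstream summits numbered 30, against 10 at or downstream of the start. The KO-only low-input summits within 500 bp of a start were also upstream, except that of Zbtb32 at 39 bp. Those of shared WT peaks lay on both sides. Upstream placement was therefore not particular to the members. In 9 cases a single member summit lay at a divergent gene pair: Dtl and Ints7 (10 tags), Prr11 and Ska2 (11), Derl2 and Mis12 (9), Mrpl32 and Psma2 (7), Mastl and Yme1l1 (7), Mrps18b and Ppp1r10 (6), Cep95 and Ddx5 (6), Aimp1 and Tbck (8), and Rad9b and Vps29 (5). The summits at Dtl and Ints7 and at Rad9b and Vps29 did not lie between the starts, but 207 bp downstream of the Ints7 start and 387 bp downstream of the Rad9b start. At Cep95 and Ddx5 the summit lay 73 bp downstream of the nearest Ddx5 start, but upstream of other Ddx5 starts. Divergent arrangement was found for 32.3% of the 62 member windows, 25% of the 12 at shared peaks, 18.2% of the 11 at KO-only peaks and 7.97% of all windows, and for 13.1% of all windows with at least 10 CpG. A divergent pair adds both its windows from 1 peak, which raises the member share. The class inside genes, from which summits near a known start had been taken out, gave 74 pairs of a summit and a gene with a known strand, where a few genes held 2 summits. These fell 20, 21, 16 and 17 in 4 equal stretches from the start to the end of the gene span.

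**Figure D4:**
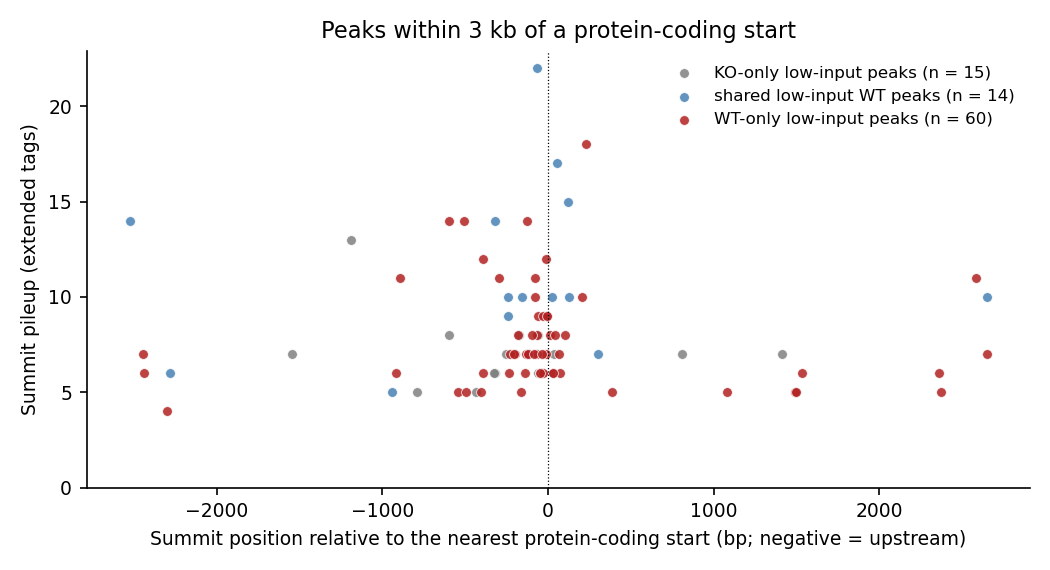
The horizontal axis is the distance of the summit from the nearest protein-coding start in bp (negative is upstream) and the vertical axis the pileup in extended tags, for 60 WT-only, 14 shared WT and 15 KO-only low-input peaks within 3 kb of a start. The WT-only points gather just upstream of 0, most of them between 5 and 12 tags, and most KO-only points near 0 are upstream as well.

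The highest folds were found inside or beside genes of many kinds. The first was a peak of 22 tags (interval 13.8 to 33.3, fold 12.3, q 8.21e-20) inside Pgm5, which encodes a phosphoglucomutase-like protein of cell adhesions, on chromosome 19 from 24857447 to 24858440, where the summit also lay 629 bp into the noncoding RNA gene Gm52405. At Ccdc12, which encodes a spliceosome protein, the pileup was 18 tags (10.7 to 28.4, fold 10.2, q 2.64e-14), 228 bp downstream of the start on chromosome 9 (110656516 to 110656895) and 2570 bp from Nbeal2, a gene needed for platelet granules. At Arl5a, which encodes a GTPase of the Golgi, it was 12 tags (6.20 to 21.0, fold 9.69, q 9.18e-12), 392 bp from the gene and inside the noncoding RNA gene A430018G15Rik (chromosome 2, 52425109 to 52425435). The Rtf2 promoter shown above had 12 tags as well (fold 8.55, q 1.54e-09, chromosome 2, 172440431 to 172440756). Inside St6galnac5, a sialyltransferase gene, and the overlapping Gm46830 there were 10 tags (4.80 to 18.4, fold 8.20, q 9.56e-09, chromosome 3, 152915942 to 152916336). Away from genes, a peak on chromosome 12 (97061359 to 97061728) had 13 tags (6.92 to 22.2, fold 9.21, q 6.39e-11) and one on chromosome Y (4083575 to 4084716) had 11 (5.49 to 19.7, fold 8.95, q 3.06e-10). Of the 15 members of highest fold, 7 were at small RNA genes, 3 at protein-coding starts, 3 inside protein-coding genes and 2 at no gene.

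Genes of DNA replication and repair formed a group of 13 with 12 members (median pileup 7, range 4 to 14), and 6 of the 13 had a summit within 500 bp of the start. The replisome factor gene Rtf2 and Dtl had summits at -14 and -299 (12 and 10 tags). The Dtl peak had a fold of 8.07 and a q of 1.83e-08. Dtl encodes the substrate receptor of the ubiquitin ligase that destroys the licensing factor Cdt1. At Polg, the mitochondrial DNA polymerase, the summit of 14 tags (fold 8.03, q 3.1e-09) lay at -126, beside the tRNA gene. Ticrr, needed to start origins of replication, and Brip1, a helicase of crosslink repair, each had 7 tags (fold 5.87, q 0.000224) at -34 and -116. The peak at Mcm4, a subunit of the replicative helicase, had 7 tags (fold 5.65) and lay 70 bp from Prkdc, the kinase of DNA end joining. Others were Rfc4 of the clamp loader (7 tags), the shieldin gene Shld2 (6), the excision repair gene Rad23b (5), the checkpoint clamp gene Rad9b (5) and the fork protection gene Tipin (4). The last had a q of 0.379, the only 1 of the 12 members above 0.05. None of the 13 genes had a KO peak, which at the members themselves was fixed by the rule. Only 7 of all 194 protein-coding genes in reach had one, so this absence is not particular to the group.

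Genes of mitosis, chromosome structure and the centrosome numbered 17, with 16 members of 4 to 11 tags (median 6). At Ska2, which encodes a protein that holds kinetochores to microtubules, and its neighbour Prr11 there were 11 tags (5.49 to 19.7, fold 8.03, q 1.9e-08). The kinetochore gene Mis12 shared a peak of 9 tags with Derl2, at -250 and -58 from their starts (fold 6.47, q 1.94e-05). Ect2, a guanine nucleotide exchange factor needed in cytokinesis, had 7 tags at -120 (fold 5.96, q 0.00015), and Mastl, the mitotic Greatwall kinase, had the same pileup. Other members lay inside Smc4 of condensin (7 tags), the spindle protein gene Zfp207 (6), the cohesin release factor gene Wapl (5), Cacul1 (5), Cep85l (5) and the kinase gene Vrk1 (4). Summits outside the gene were found at Tmpo, a lamina protein gene (6), the kinase gene Nek10 (6), the chromokinesin gene Kif22 (5) and Arhgef39 (7). Near-start summits were seen at the centrosome gene Cep95 (6) and at Ccdc77, which shares its peak of 8 tags with Kdm5a.

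Genes of RNA processing and decay numbered 15, with 15 members of 4 to 18 tags (median 6), among them Ccdc12 above. At Pop7, which encodes a protein of RNase P and RNase MRP, there were 9 tags at -8 (4.12 to 17.1, fold 7.46, q 2.7e-07), and at Prkrip1, a spliceosome protein gene, 9 tags at -32 with the same fold and q. Rsrp1 had 10 tags at -78 (fold 6.78, q 4.27e-06). Inside genes, summits were found in Igf2bp3, an mRNA-binding protein gene (8 tags), Hnrnpu and Hnrnpk of the nuclear ribonucleoproteins (6 and 4), Acin1 (6), and Wtap of the RNA adenosine methyltransferase complex (5, q 0.199). Cnot1 and Cnot6l, the scaffold and an enzyme of the CCR4-NOT deadenylase, had 6 and 5 tags. The helicase gene Ddx5 had 6 tags at 73 bp from the start, Ppp1r10 (a phosphatase partner) shared 6 tags with Mrps18b, and the mRNA export helicase gene Ddx19b lay 2062 bp from the 6-tag peak at Aars. In this group 3 genes, Cnot1 and Ddx5 among them, also had a KO peak elsewhere at the gene, of 5 or 6 tags.

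Transcription genes numbered 20, with 19 members (median 6 tags, range 4 to 14). Polr2a, the largest subunit of RNA polymerase II, had 7 tags (2.81 to 14.4, fold 5.96, q 0.00015) at 66 bp from its start on chromosome 11 (69758340 to 69758638). The Integrator subunit genes Ints7 and Ints2 had 10 and 6 tags at 207 and 29 bp, and Taf11 of the general factor TFIID had 8 at 13 bp. A pair of circadian repressor genes were in reach: Ciart (8 tags at -69, fold 5.92, q 0.000198) and Per1, whose end lay 906 bp from a 14-tag peak at serine and threonine tRNA genes. Mga, a Max partner that represses germline genes in embryonic stem cells, had 7 tags at -231 (fold 5.65, q 0.00059). The zinc finger gene Maz (5 at -496), the E2F-associated gene Eapp (11, at a small nuclear RNA gene), Fosb of the AP-1 family (11), Pou2f2 (5) and Zfp574 (5) had summits outside the gene. Inside genes were the summits of Ssbp3 (6), Rlf (6), Zfp958 (5), Aatf (5), Qrich1 (5), Tfdp2, an E2F partner (5), Camta1 (5) and Zfp827 (4). The last 3 had q-values between 0.117 and 0.282.

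Chromatin genes numbered 10, with 10 members of 6 to 14 tags (median 7.5), all at a q of at most 0.05. The highest was beside Phf12, a Sin3 complex gene, with 14 tags (7.65 to 23.5, fold 8.03, q 3.1e-09) at -599 from the start. At Prmt5, an arginine methyltransferase gene required in germ cells, 11 tags lay at -296 (fold 6.42, q 8.97e-06), over the tRNA gene n-TRacg6. H3f4, a histone H3 gene, had 9 tags at -7 (fold 5.35, q 0.00114), in the member window with the fewest CpG, 5 in all. Summits at or near starts were also seen for Pogz, a heterochromatin protein gene (6 at -32), and Pagr1a of the MLL complexes (6 at -44). The histone demethylase gene Kdm5a shared 8 tags with Ccdc77. Inside the gene lay those of Dot1l, a histone H3 methyltransferase (8), Arid4a (7), Rnf2, the ubiquitin ligase of Polycomb complex PRC1 (6), and the acetyltransferase gene Ep300 (6).

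Genes for chaperones, ubiquitin and the proteasome numbered 19, with 20 members (median 6 tags, range 4 to 13). Hspa5, which encodes the main Hsp70 chaperone of the endoplasmic reticulum, had 7 tags at -130 (2.81 to 14.4, fold 5.76, q 0.000369), between 4 CCAAT matches. Other genes for protein folding or disposal in that compartment were Derl2 (9 at -58), Tmx3 (8, 189 bp away) and Hsp90b1 (5, inside). The proteasome genes Psma2 and Psmc1 had 7 and 6 tags at -191 and -140. The Hsp70 partners St13 and Dnaja2 had 8 and 5, both outside the gene. Ubiquitin ligase genes or their receptors were Trim17 (9), Dcaf11 (7 at -200), Trim7 (6), Znrf3, which removes Wnt receptors (5), Rnf19b (5), Zyg11b (4) and Ttc3 (4). Ide, the insulin-degrading enzyme, had 6 tags and also a KO peak of 5 tags 2618 bp away. Midn (5) and Usp54 (4) complete the named genes, and the 3 peaks of 4 tags had q-values of 0.282 to 0.311.

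Genes of the ribosome and translation numbered 11, with 11 members of 4 to 8 tags (median 6). Starts had the summits of Mrpl32 and Mrps18b of the mitochondrial ribosome (7 at -14 with a fold of 5.96, and 6 at -48), Aars, the alanine tRNA synthetase (6 at -29), Aimp1 of the synthetase complex (8 at -94) and Pdcd2l (5 at -162). Inside the gene lay those of nucleolin, Ncl (6), whose summit was 46 bp from the small nucleolar RNA gene Snord82, of Rps20 (6), of the tRNA-modifying enzyme gene Trmt12 (7) and of nucleophosmin, Npm1 (4). Eif4a2, an initiation factor helicase gene, lay 707 bp from the 7-tag peak inside Rfc4, and Mrpl58 lay 1064 bp from a peak at arginine tRNA genes.

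Metabolic and mitochondrial genes numbered 18, with 18 members of 5 to 22 tags (median 6.5), of which 14 genes held the summit. After Pgm5, the highest was Sirt4, a mitochondrial sirtuin gene, with 13 tags, but its summit lay 139 bp from the small nuclear RNA gene Gm24407. Starts were near the summits of Yme1l1, a mitochondrial protease gene (7 at -68, fold 5.96, q 0.00015), and Xpnpep3, a mitochondrial peptidase gene (8 at -183, fold 5.73, q 0.00042). Lipid genes were Dgat2, a triglyceride synthase (9), Fdft1, the squalene synthase (7), the glycolipid carrier Gltp (6), the choline-releasing phosphodiesterase Enpp6 (6) and the sterol-binding Osbp2 (5). Respiratory genes were Atp5h of the ATP synthase (7), the assembly factors Cox20 (6) and Uqcc2 (6). Others were the sugar enzymes Gmds (6) and Galnt15 (5), the inositol kinase Ippk (5) and the coenzyme A enzyme Pank2 (5, q 0.199).

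Genes of membrane traffic, the cytoskeleton and cilia numbered 20, with 22 members (median 6.5 tags, range 4 to 18), counting Nbeal2 and Arl5a above. Copg1 of the COPI coat had 7 tags at -205 (fold 5.55, q 0.000918), and Vps29 of the retromer lay 510 bp from the 5-tag peak at Rad9b. Summits inside the gene were found in Actg1, cytoplasmic gamma actin (7, with a second peak of 4 tags 798 bp past its end), Mob4 (6), Vps13b (6), Chmp7 of ESCRT-III (6), the reticulon gene Rtn3 (6), Ctnna1, alpha catenin (6), the importin gene Ipo7 (5), Sytl3 (5), the polarity gene Pard3 (5) and Relch (4). Mid1, a microtubule-binding ubiquitin ligase on chromosome X, held 2 members of 9 and 8 tags (folds 6.58 and 6.13), 109920 and 108855 bp from the nearest of its annotated starts. The genes in reach but outside the summit were the ciliary genes Tmem107 (11, 31 bp from the U8 gene Snord118) and Cfap126 (7), the fusion factor Napa (8), Rabepk (7) and the adhesion gene Pxn (13).

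Transporters, signalling and adhesion made the largest group, 34 genes with 34 members of 5 to 14 tags (median 6), 32 at a q of at most 0.05. The highest was inside the scaffold gene Homer2, with 14 tags (7.65 to 23.5, fold 8.03, q 3.1e-09), followed by Calml4, a calmodulin-like gene (10, fold 7.12), and the protein kinase C gene Prkce (9, fold 7.46). Near starts were Kptn, a repressor of mTORC1 signalling (8 at 40 bp, fold 6.71, q 6.83e-06), the growth factor gene Egf (6 at 30 bp), Tbck (8 at -171), Plekhg2 (6 at -395, at an isoleucine tRNA gene) and the kinase gene Mapk7 (5 at -402). Pileups of 6 to 8 tags inside genes were seen for Rerg (8), the Wnt receptor gene Fzd3 (7), Sectm1a (7), Arhgef26 (6), Atrnl1 (6), Cd226 (6), Dok5 (6), the cadherin gene Pcdh15 (6), Slc35g2 (6) and Niban1 (6). Those of 5 tags were the arginine transporter gene Slc7a1, Scara5, Suco, the ephrin gene Efna2, Sdk1, Ywhaz (a 14-3-3 protein), Plekhh2 and the phosphatase gene Ptprt, which held 2. Genes reached from outside were Plekhj1 (8), Anks1 (8), Slc35g3 (7), the bicarbonate transporter Slc4a7 (6), the glypican Gpc2 (6), the vault protein gene Mvp (6), Prrt2 (6) and the amino acid transporter Slc1a4 (6).

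Another 10 protein-coding genes were given no function here. Ccdc107 (7 tags at -82, fold 5.96, q 0.00015, beside the RNA gene Rmrp) and Ttc27 (6 at -235) had summits near the start. Inside the gene were those of Tmem132b (7), Gm40011 (7, shared with Ctcfl), Ppp4r3a (5) and Camkmt (5). Outside were BC028528 (8), Gm3435 (8) and, with 14 tags at -506 (fold 7.36, q 3.47e-08), Gm52481 on chromosome Y.

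Genes with germ cell functions numbered 7, with 11 members of 5 to 15 tags (median 6, the same as over all members). Inside Tex14, which encodes a protein of the bridges between germ cells, 4 members of 15, 9, 8 and 7 tags each lay at a copy of the U3 RNA gene, 67 to 86 bp away or over it. Dazl, an RNA-binding protein of germ cell development, held 2 members of 6 and 5 tags (folds 5.13 and 4.32, q 0.00359 and 0.0497) on chromosome 17 (50286863 to 50287283 and 50283562 to 50283860), 6563 and 9973 bp from the nearest of its annotated starts. The intervals of these pileups were 2.20 to 13.1 and 1.62 to 11.7. Piwil2, a Piwi protein of the piRNA pathway, had 6 tags (2.20 to 13.1, fold 4.77, q 0.0166, chromosome 14, 70405298 to 70405596). Stag3, the meiotic cohesin subunit, had 6 (fold 4.69, q 0.0232, chromosome 5, 138282636 to 138283079), 2362 bp from the nearest of its annotated starts. Sohlh1, a transcription factor of differentiating spermatogonia, had 5 (1.62 to 11.7, fold 4.47, q 0.0387, chromosome 2, 25845637 to 25845935), 1495 bp from the nearest of its annotated starts. Ctcfl, the testis paralogue of CTCF, had 7 (fold 4.28, q 0.0503), and Spata17 had 5 (fold 4.47). No KO peak lay at any of these genes but Tex14, which had 1 of 10 tags. The rule had left out KO overlap at the members, so this absence does not show a loss in KO.

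In 15 gene lists with 225 annotated genes, 9 genes (4%) had a member, where 0.886% of all protein-coding genes had one. The lists were chosen with earlier results known, and Tex14 counts through summits that lie at U3 genes. The genes were Sohlh1 of 10 for differentiating spermatogonia, 3 of 28 for meiosis, among them Stag3 and Tex14, Piwil2 and Dazl of 18 for germline genome defence, and 3 of 18 for housekeeping, among them Polr2a and Ywhaz (5 tags, fold 4.32, q 0.0497, chromosome 15, 36789509 to 36789960). In 11 lists no gene had a member: TET and DNA methylation genes, undifferentiated spermatogonia, imprinted genes, the RNA polymerase III machinery, Polycomb targets, the cell cycle, Sertoli, Leydig and peritubular cells, macrophages and endothelium, and spermatids. The KO peaks also reached 4 of the 225 genes, 2 in the meiosis list and 2 in the housekeeping list. The share of all genes with a KO peak is not given, so the 4% does not set members apart from KO peaks. A peak at a gene is not expression, so these gene lists do not tell which cells were sorted.

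Small RNA genes transcribed by RNA polymerase III, and those annotated as small nuclear RNA (U3 copies among them), had 33 members of 5 to 18 tags (median 8). Their median fold, 5.96, was the highest of the 6 classes. Genes annotated as small nucleolar RNA, such as Snord118 and Snord82, were not counted in this class. Transfer RNA genes were in reach of 23 of the 33 members, at 5 to 14 tags (median 7). These held 50 of the 408 annotated tRNA genes within 3 kb and 35 within 500 bp, and 16 of the 23 had at least 2 tRNA genes in reach. Chromosome 13, which carries large tRNA gene clusters, had 9 of them and chromosome 11 had 5. How the authors placed reads that match several gene copies is not given in the sources used here, so the copy behind a peak is uncertain. The highest folds were 10.3 at a group of 7 genes on chromosome 13 (13 tags, 6.92 to 22.2, q 5.73e-13, 21169613 to 21170355, 110 bp from n-TLaag7), 8.48 at n-TDgtc11 (11 tags, q 2.86e-09, chromosome 13, 21911071 to 21911435) and 8.20 at n-TEctc10 and n-TLcaa3 (10 tags, chromosome 11, 58302180 to 58302763).

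The 50 genes carried anticodons for 18 of the 20 amino acids, with none for cysteine or tyrosine. For arginine they were n-TRtcg4, n-TRtcg5, n-TRacg4, n-TRacg6, n-TRcct3 and n-TRcct5. Leucine had n-TLaag5, n-TLaag6, n-TLaag7, n-TLcaa3 and n-TLcaa4, and serine had n-TScga3, n-TSaga6, n-TSaga7, n-TSaga8 and n-TStga2. Aspartate (n-TDgtc11, n-TDgtc12, n-TDgtc15, n-TDgtc16), histidine (n-THgtg3, n-THgtg4, n-THgtg5, n-THgtg8) and methionine (n-TMcat5, n-TMcat8, n-TMcat14, n-TMcat15) had 4 each. Lysine had n-TKctt11, n-TKctt16 and n-TKctt28. Those with 2 were alanine (n-TAcgc10, n-TAtgc10), glutamate (n-TEctc10, n-TEctc13), glycine (n-TGacc1, n-TGtcc7), isoleucine (n-TIaat8, n-TIaat16), proline (n-TPagg3, n-TPtgg4), threonine (n-TTagt5, n-TTtgt2), tryptophan (n-TWcca2, n-TWcca3) and valine (n-TVaac7, n-TVcac6). Single genes were n-TNgtt12 (asparagine), n-TQctg7 (glutamine) and n-TFgaa7 (phenylalanine). A KO peak of 7 or 9 tags also lay within 3 kb of 8 of the 50, so the WT-only call holds for the peak and not for the gene cluster. Over the whole annotation, 101 tRNA genes had a WT peak within 3 kb and 79 a KO peak.

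Outside tRNA genes, the small RNA members included Gm22317, a small nuclear RNA gene on chromosome 12, with 18 tags (10.7 to 28.4, fold 12.3, q 5.8e-18, 54738415 to 54738823). The pseudogene Gm2412 lay 690 bp away and had a KO peak of 8 tags. Rnu5g, a U5 spliceosomal RNA gene inside the noncoding RNA gene Gm40527 on chromosome 9 (65201631 to 65202066), had 14 tags (7.65 to 23.5, fold 9.87, q 2.44e-12). A peak on chromosome 5 (115489964 to 115490334) had 13 tags (fold 10.4, q 2.45e-13) beside Gm24407 and Gm24265, with the pseudogene Gm13836 in reach. The U3 copies were Rnu3b2 (15 tags, 8.40 to 24.7, fold 8.56, q 1.84e-10, chromosome 11, 87471166 to 87471505), Rnu3b4 (9 tags, fold 6.69, q 7.87e-06), Rnu3b1 (8 tags, fold 4.82, q 0.00966, with Gm23137 and LOC115487798 in reach) and Rnu3b3 (7 tags, fold 5.96, q 0.00015). Gm22513 had 11 tags. The RNA gene of the signal recognition particle, Rn7s2, had 9 tags (fold 7.06), and Rmrp, the RNA of RNase MRP, 7 tags at 224 bp (the promoter of Pop7, a protein of the same enzyme, is printed above).

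Among other RNA genes in reach were the small nucleolar RNA genes Snord82, Snord118 and LOC115490074, the guide RNA gene Gm24289, and the microRNA genes Mir103-2, Mir1894 and Mir6935, which lay 1401 to 2461 bp from the summit. Noncoding RNA genes that held a summit were Gm32298, Gm40831, Gm39827, Gm39918, Gm18280, Gm38914, D030074P21Rik, 3110056K07Rik, C920021L13Rik, Gm38877, Brip1os, 4930513N10Rik, Gm33923, Gm52298, B230214G05Rik, 4930474G06Rik, Gm33948, Gm42357 and Gm9465, beside those named earlier. Those reached from outside were Gm26802, 1700125G22Rik, Gm40833, 0610009L18Rik, Gm32823, Gm42290, Gm36445, 1700086P04Rik and 1810062O18Rik. Pseudogenes in reach were Gm12184, Gm5977, Gm18682, Gm12033, Gm46316 and Vmn2r-ps139. Their members had between 4 and 13 tags, and no function of these genes is given here.

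Members were clustered in places. With summits within 20 kb of each other joined, 5 clusters of 3 or more held 31 members, and 188 members stood alone. Beside the U3 genes in Tex14 and a tRNA cluster on chromosome 13, the X chromosome had 3 members of 5 to 7 tags from 170014418 to 170022428 around Erdr1. No KO peak was listed in that stretch. How reads that match several places were placed is not known here either, so this absence is not informative by itself. Chromosome Y had 21 members, 9.01% of all, on 3.36% of the annotated sequence. It also had 10 of the 69 KO-only low-input peaks, so the excess was not particular to the members. Of the 21 members, 19 lay in a single stretch of 131 kb, with 4 to 11 tags (median 6), and 18 of them had a KO summit within 10 kb. The KO list had 9 peaks of 5 to 8 tags there, 8 of them not overlapped by a WT peak, so both lists hold scattered low peaks in the stretch and their summits seldom coincide. The nearest KO summit was 776 bp from a member. The other 2 members on Y, of 14 and 8 tags, lay far from this stretch, among KO peaks of 17, 8 and 6 tags. Without chromosome Y, the share of members with a gene in reach was 91.5% of 212.

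**Figure D5:**
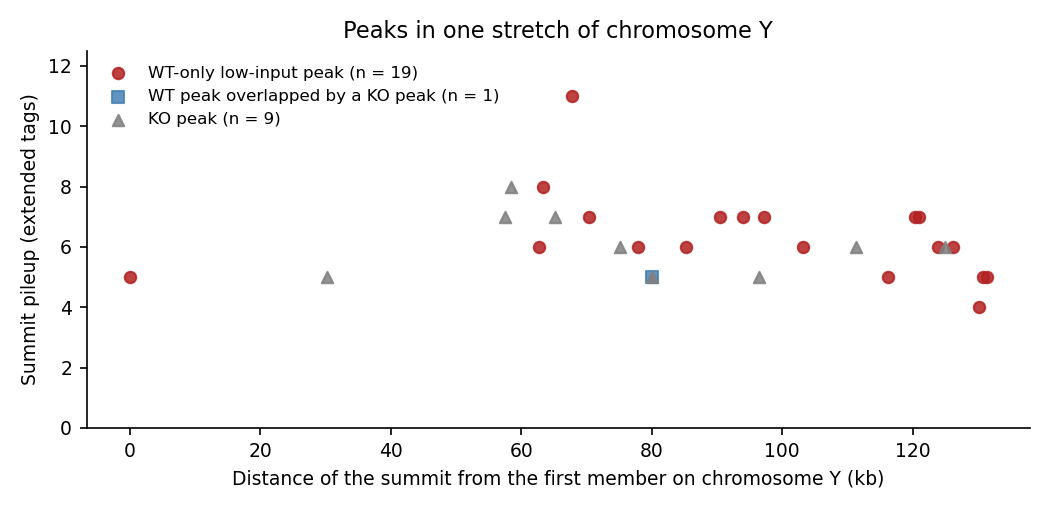
The horizontal axis is the distance of the summit in kb from the first member in the stretch of chromosome Y and the vertical axis the pileup in extended tags, for 19 WT-only low-input peaks, 1 WT peak overlapped by a KO peak, and all 9 KO peaks. Peaks of both lists are interspersed, between 4 and 11 tags in WT and 5 and 8 in KO.

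At 17 of the 305 genes the KO list had a peak elsewhere at the same gene. The protein-coding ones included Trim7, Tex14, Ddx5, Wapl, Ide and Cnot1. The KO summits at the protein-coding ones lay between 2618 and 62096 bp from the member, with 5 to 10 tags. At the other genes in reach of a member no KO peak was listed, within the depth limit given above. The rule excluded KO overlap at the members and the KO list held only 247 peaks, so this absence was largely set in advance. The share of all annotated genes with a KO peak is not given here.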

How the data were processed

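Tet1 ChIP and input libraries of spermatogonia (1 of each per genotype) were represented by 2 peak lists. Per the file headers, the authors called peaks with MACS 2.1.1.20160309, each ChIP against the input of its genotype, with a q cutoff of 0.5, the human preset for genome size, fragments of 299 bp (WT) and 300 bp (KO), 1 tag kept per position, and the larger library scaled down. The deposited pileup is a signal in ChIP tags, the deposited fold is a ratio to the local background, and p and q were deposited as −log10 values by the authors. Trim Galore, Bowtie2, SAMtools, deepTools and mm10 are named in the submitters' processing notes, with no settings.

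The input background was recovered from pileup and fold, and a Poisson p computed from it matched the deposited one within 5% for 373 of 373 WT peaks. Genes came from a RefSeq table (GRCm38.p6, spans without strand or exons) and promoters and strands from a RefSeq promoter table, which covered 157 of the 194 protein-coding genes in reach. The exonic or intronic position of a summit was therefore not analysed here. A gene was in reach of a summit inside it or within 3 kb. Scripts used Python 3.11.15, numpy 2.4.6, pandas 2.3.3, scipy 1.17.1 and matplotlib 3.10.9 and were tested on simulated data. Shares have exact binomial (Clopper-Pearson) and pileups exact Poisson 95% intervals. Tags are not independent molecules, so these cover counting error only.

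The members and gene lists were chosen with earlier results of these data known. Every gene in reach was to be named once, with full values for the 15 members of highest fold, the 20 strongest promoters and the genes of the lists. Some items are counted but not reported here by name. Alternatives were other overlap, input, q, fold and distance limits.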

Additional observations from a re-analysis of the deposited data

How the results depend on the processing

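Of 56 values recomputed under other settings, 47 stayed within 1.5 times the count or within the interval of the share. A q of at most 0.01 left 141 members, with a gene end within 3 kb of 61.0%, and a fold of at least 5 left 133, with 59.4%. The share near a gene end was 40.8% within 1000 bp and 36.1% for protein-coding ends alone. Without chromosome Y, a setting chosen after seeing the data, 91.5% had a gene in reach. With a KO q of at most 0.05 as the limit, 99 members instead of 162 scaled to a callable pileup. With the summit required inside the promoter window, 39 windows remained of 62. The stricter limits hold fewer peaks by construction. For the shift in the gene end share the cause was not tested. No paired analysis was possible because each genotype had 1 ChIP and 1 input library and no result came from a test between samples. Depth limits these values, since most members rest on 5 to 7 tags, and there is no replicate library.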
